A study of Mus musculus with 11 samples.

Results

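Sterol and fatty acid synthesis was described in sorted hepatic sinusoidal endothelial cells (ECs) through 35 genes, picked by symbol from the 29307 genes of the count table. Of these, 19 belong to the sterol branch, 11 to the fatty acid branch, and 5 are regulators that serve both branches. The libraries came from the livers of 5 germ-free (GF) and 6 conventionally raised (CONV-R) C57BL/6J mice, males aged 10 to 12 weeks. GF mice are reared without any microbes, whereas the CONV-R mice of the same strain carry a microbiota and are free of specific pathogens. No other allele, transgene or agent was used in either group. ECs were enriched on CD146 beads and sorted as CD31+, CD105+ and CD146+ cells, and each library held cDNA amplified from 20 ng of total RNA of 1 mouse. The study names low viability of the sorted cells as a limitation. It also reports fewer sorted ECs and, on average, less total RNA from GF than from CONV-R mice. This difference cannot be told apart from the group.

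Sterols and fatty acids are both built from acetyl-CoA. The sterol branch runs through mevalonate and squalene to cholesterol, and the fatty acid branch makes palmitate, which elongases and desaturases then lengthen and unsaturate. Transcription of both branches is driven by the SREBP factors, which the escort protein SCAP carries out of the endoplasmic reticulum when sterols are low, and which INSIG proteins hold back when sterols are plentiful. SREBP-2 acts mainly on sterol genes and SREBP-1c mainly on fatty acid genes. In the liver this pathway is known best in hepatocytes.

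Total counts ran from 7922855 to 14669352 in CONV-R libraries and from 7242717 to 16164588 in GF libraries. Levels below are CPM, the counts of a gene relative to all counts of its library, with library totals adjusted by the trimmed mean of M values (TMM). The 10 markers of sinusoidal endothelium, among them *Stab2* and *Lyve1*, summed to between 25808 and 35539 CPM in every library, and none of the 10 passed the test between the groups. At an unadjusted p under 0.05 in edgeR, *Mcam*, *Lyve1*, *Pecam1*, *Stab1* and *Cdh5* were higher in GF libraries and none was lower, where 12.5% of all tested genes were higher. The 10 hepatocyte markers summed to between 25.0 and 80.2 CPM, with *Alb* between 18.9 and 43.7 CPM, and none passed the test. Of the 10 Kupffer cell markers, 6 were higher in GF libraries, and their sum lay between 85.1 and 224 CPM in CONV-R libraries and between 193 and 912 CPM in GF libraries, with GF replicate 6 the highest. Stellate cell markers summed to between 98.1 and 271 CPM and lymphocyte markers to between 14.6 and 38.2 CPM, and none of the 3 of 6 tested in each list passed. Each sum rested mainly on 1 gene, *Hgf* at 91.6 to 269 CPM and *Ptprc* at 13.0 to 37.3 CPM. *Lrat*, another stellate cell marker, had only 0.476 to 7.83 CPM, and its mean was lower in GF libraries while that of *Hgf* was higher. Cholangiocyte markers summed to between 0.137 and 2.58 CPM in CONV-R libraries and between 0.286 and 22.1 CPM in GF libraries, with GF replicates 6, 1 and 2 the highest, and the 1 of 4 that could be tested did not pass. The part of these other cells in the results below was not tested. In bulk samples, fewer cells of a type and less RNA per cell cannot be told apart.

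The upstream sequences of 4 members are shown because the first is the gene that fell, the second the gene that rose, and the other 2 are sterol genes with low values in GF libraries. They were taken from RefSeq windows of GRCm38.p6 and end before the start of the gene in the GENCODE M21 annotation. Capitals mark CCAAT boxes (CCAAT or, on the other strand, ATTGG), E-boxes (CACGTG) and the core of a sterol regulatory element (TCACNCCAC), each searched on both strands.
Insig1, chr5:28071162-28071362, plus strand: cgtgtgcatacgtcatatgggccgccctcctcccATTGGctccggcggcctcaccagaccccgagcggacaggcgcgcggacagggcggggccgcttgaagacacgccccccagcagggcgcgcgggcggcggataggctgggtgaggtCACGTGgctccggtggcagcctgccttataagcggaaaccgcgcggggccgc
Elovl1, chr4:118427843-118428092, plus strand: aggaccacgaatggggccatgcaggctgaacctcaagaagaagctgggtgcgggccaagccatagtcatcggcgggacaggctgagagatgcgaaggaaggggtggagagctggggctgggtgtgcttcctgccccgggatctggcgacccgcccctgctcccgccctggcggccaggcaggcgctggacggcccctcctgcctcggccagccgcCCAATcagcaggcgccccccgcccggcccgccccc
Hmgcs1, chr13:119690101-119690350, plus strand: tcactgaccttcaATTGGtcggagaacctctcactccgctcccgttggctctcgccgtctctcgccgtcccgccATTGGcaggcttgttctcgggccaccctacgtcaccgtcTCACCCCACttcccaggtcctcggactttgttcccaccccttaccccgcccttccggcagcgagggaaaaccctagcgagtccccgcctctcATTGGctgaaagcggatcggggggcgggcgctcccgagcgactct
Sc5d, chr9:42264301-42264550, minus strand: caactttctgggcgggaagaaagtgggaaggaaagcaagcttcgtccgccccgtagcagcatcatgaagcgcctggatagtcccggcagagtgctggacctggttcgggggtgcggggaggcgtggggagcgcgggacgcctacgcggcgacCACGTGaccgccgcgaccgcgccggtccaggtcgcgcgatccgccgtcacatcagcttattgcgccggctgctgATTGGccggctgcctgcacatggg

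Windows of 300 bases around the annotated start, 250 before and 50 after, were matched for 28 of the 35 members, in 37 windows. CCAAT boxes stood in 24 of these 37 windows (64.9%), against 37.4% of the 32851 windows of all genes. By branch they stood in 14 of 18 sterol windows (77.8%), 5 of 9 fatty acid windows (55.6%) and 5 of 10 regulator windows. E-boxes stood in 7 of the 37 windows (18.9%), against 7.15% of all windows, and *Insig1* and *Sc5d* were among them. The letters of the sterol regulatory element core stood in 1 member window, that of *Hmgcs1*, 137 bases before the start, against 1.24% of all windows. A match of letters is a description and not a binding site.

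The comparison of the members between groups gave 1 gene that rose and 1 that fell in GF ECs. *Elovl1*, an elongase of very long saturated and monounsaturated fatty acids, was 1.49-fold of the CONV-R level, and *Insig1*, which retains the SCAP-SREBP complex in the endoplasmic reticulum, was 0.583-fold. No gene of the sterol branch passed the test, although 14 of its 17 tested members had a log2 fold change (Log2FC) below 0. In the fatty acid branch 6 of 11 lay below 0, and among regulators 3 of 5, where 50.9% of all tested genes lay below 0.

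These calls come from the quasi-likelihood test of edgeR on 12905 genes, at a Benjamini-Hochberg adjusted p under 0.05. It called 7.48% of all tested genes, 4.8% as higher and 2.67% as lower in GF ECs. Of the 33 members tested, 2 were called, 1 in each direction, so the share of members called was not above that of all genes. *Idi1* and *Fdps* had too few counts to be tested.

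**Figure D1:**
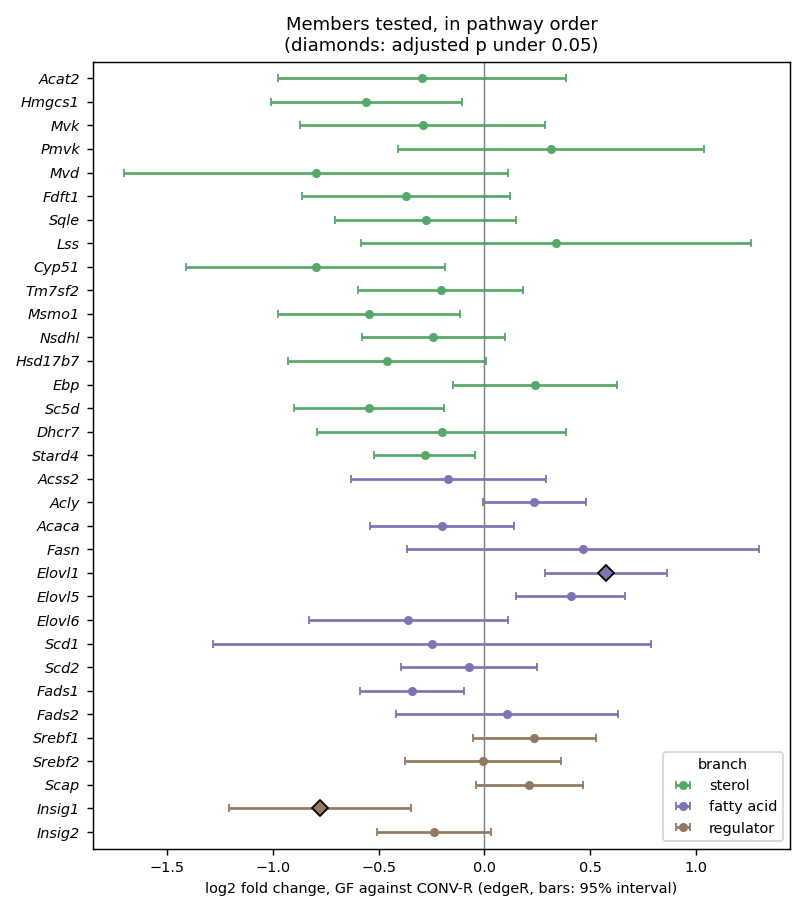
Log2FC of the 33 tested members, GF against CONV-R, from edgeR, with 95% intervals as bars; genes follow the order of the pathway and colours give the branch. The 2 diamonds are *Elovl1* at 0.57 and *Insig1* at -0.78, and 14 of the 17 sterol genes lie left of 0, 5 of them with intervals that do not reach it.

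At an unadjusted p under 0.05, the same test gave 5 of 17 sterol members with lower values in GF ECs and none with higher values, where 10.5% of all tested genes were lower and 12.5% higher. In the fatty acid branch it gave 2 higher and 1 lower. The median Log2FC was -0.29 over the tested sterol members, -0.07 over the fatty acid members and -0.01 over the regulators, beside -0.01 over all tested genes. The groups did not overlap for 1 member, *Sc5d*, which was lower in every GF library, where 2.37% of all tested genes were lower and 3.22% higher without overlap. Without CONV-R replicate 3, which stood above the other CONV-R libraries for *Hmgcs1*, *Msmo1*, *Ebp* and *Stard4*, 14 of 17 sterol members still lay below 0, with a median of -0.31, and 7 of 11 fatty acid members lay below 0, with a median of -0.15. The difference between branches was not tested.

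Each library's mean over a branch, of log2(CPM + 1) centred per gene, gave 1 value per mouse for the 17 sterol genes. It ran from -0.03 to 0.30 in the 6 CONV-R libraries and from -0.26 to -0.07 in the 5 GF libraries. The highest values were those of CONV-R replicates 3 and 2. The groups did not overlap, but CONV-R replicates 6 and 4, at -0.03 and -0.01, lay close to GF replicate 4, at -0.07. Single genes did not all follow the mean, since *Dhcr7* and *Hsd17b7* were at their lowest CONV-R level in CONV-R replicate 3, at 7.12 and 8.10 CPM. For the 11 fatty acid genes it ran from -0.15 to 0.08 in CONV-R libraries and from -0.36 to 0.31 in GF libraries, so the groups overlapped. GF replicates 5 and 6 marked the ends of that range.

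**Figure D2:**
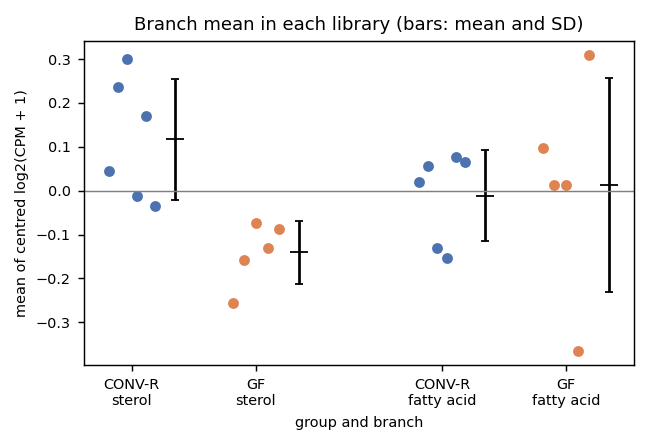
Mean of centred log2(CPM + 1) over the 17 tested sterol genes and the 11 fatty acid genes, 1 point per library, with the mean and SD of each group as bars. Sterol means of GF libraries lie between -0.26 and -0.07, below all CONV-R libraries, while the fatty acid means overlap.

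Among the regulators, *Insig1* (chromosome 5 of GRCm38, 28071363 to 28078662, plus strand) had the lowest Log2FC. CONV-R libraries had 24.7, 44.3 and 58.5 CPM as the lowest, median and highest value. GF replicates 1, 2, 4, 5 and 6 had 29.0, 24.6, 18.5, 22.2 and 30.1 CPM. GF libraries were low throughout, but CONV-R replicate 1 lay within their range, so the groups overlapped. The means were 24.9 ± 4.81 CPM (SD, n = 5) in GF and 42.7 ± 12.6 CPM (SD, n = 6) in CONV-R ECs, and the Log2FC was -0.78 (SE 0.20, 95% interval -1.21 to -0.35, edgeR adjusted p = 0.0273). The call was lost, with edgeR adjusted p values from 0.0551 to 0.0674, when CONV-R replicate 2, CONV-R replicate 5, GF replicate 2 or GF replicate 4 was left out. It was also lost in limma on the authors' normalized values (adjusted p = 0.0794). Its 50-base stretches were shared with another annotated gene, *Gm37784*, for 2.17% of the transcript.

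*Insig2*, the second INSIG protein, was the most abundant regulator per length at 21.3 FPKM (CPM per kilobase of exon) over the 11 libraries, against 11.2 FPKM for *Insig1*. CONV-R libraries had 57.6, 79.9 and 98.6 CPM as lowest, median and highest value. In GF replicates 1, 2, 4, 5 and 6 the values were 70.9, 72.6, 61.4, 64.6 and 66.7 CPM, all within the CONV-R range. The Log2FC was -0.24 (SE 0.13, edgeR adjusted p = 0.276) and did not pass the test.

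*Srebf1*, which encodes SREBP-1, had 34.0, 39.7 and 54.0 CPM as lowest, median and highest value in CONV-R libraries. Values of 44.6, 44.6, 49.4, 45.7 and 59.5 CPM were found in GF replicates 1, 2, 4, 5 and 6. CONV-R replicate 1 lay among the GF values, and the Log2FC of 0.24 (SE 0.14, edgeR adjusted p = 0.317) did not pass the test. *Srebf2*, which encodes SREBP-2, had 22.6, 27.7 and 35.6 CPM in CONV-R libraries as lowest, median and highest value. GF replicates 1, 2, 4, 5 and 6 had 36.0, 29.5, 28.8, 18.9 and 29.8 CPM, so the GF libraries spanned the whole CONV-R range. Its Log2FC was -0.01 (SE 0.17, 95% interval -0.38 to 0.36, edgeR adjusted p = 0.989).

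*Scap*, the SREBP escort, had 27.3, 31.2 and 35.4 CPM as lowest, median and highest value in CONV-R libraries. In GF replicates 1, 2, 4, 5 and 6 the values were 40.0, 34.6, 36.2, 33.3 and 37.2 CPM. Overlap was limited to CONV-R replicate 1 on the one side and GF replicates 2 and 5 on the other, and the Log2FC of 0.21 (SE 0.12, edgeR adjusted p = 0.303) did not pass the test. *Scap* exons overlap those of an opposite-strand gene, *5830462I19Rik*, over 13.2% of their length, and the strand setting of the counting was not given in the sources used here.

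**Figure D3:**
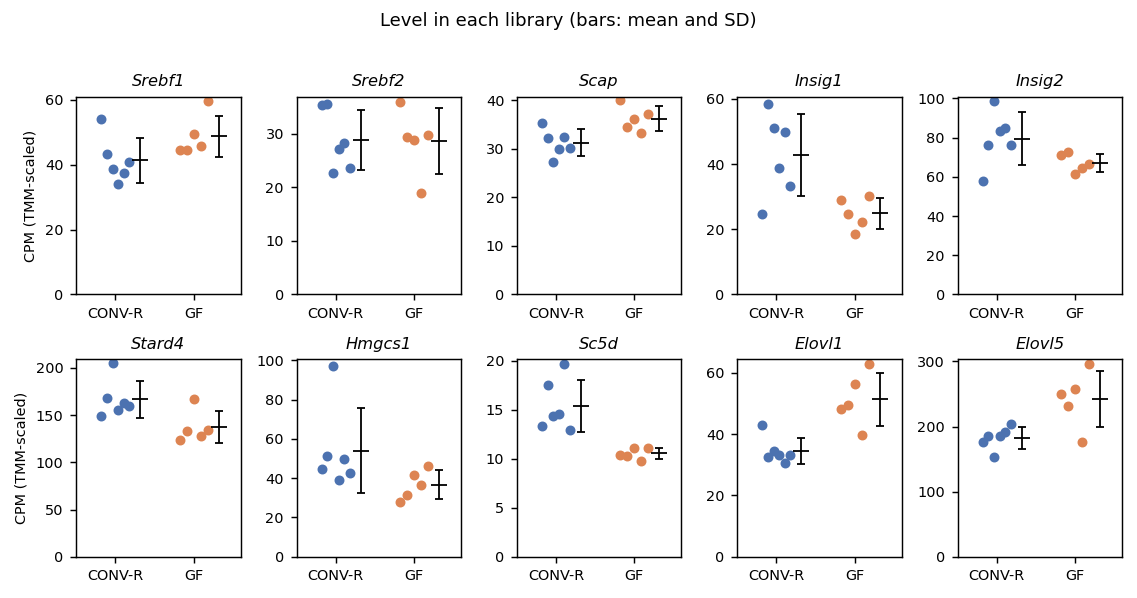
CPM of the 5 regulators, 3 sterol genes and 2 fatty acid genes in each library, with the mean and SD of each group as bars and axes that start at 0. *Sc5d* is the only one of the 10 genes whose groups do not overlap, and CONV-R replicate 3 is the high point of *Hmgcs1* and *Stard4*.

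In the sterol branch, the most abundant member per length was *Stard4*, which carries cholesterol between membranes, at 27.4 FPKM. CONV-R libraries had 149, 161 and 205 CPM as lowest, median and highest value. Values of 124, 134, 167, 128 and 134 CPM were found in GF replicates 1, 2, 4, 5 and 6. All GF libraries except replicate 4 were below the CONV-R range, and the Log2FC was -0.28 (SE 0.11, edgeR adjusted p = 0.144).

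The first steps make mevalonate and then isoprene units. *Hmgcs1* (chromosome 13, 119690379 to 119708260, plus strand), which makes HMG-CoA, ranged from 27.7 to 46.1 CPM in GF libraries and from 39.0 to 97.0 CPM in CONV-R libraries. CONV-R replicate 3 was far above the next CONV-R library, at 51.4 CPM, and the Log2FC of -0.56 (SE 0.21, edgeR adjusted p = 0.125) was -0.32 without it. *Acat2*, a thiolase that joins acetyl-CoA units, had a Log2FC of -0.30, *Mvk*, mevalonate kinase, -0.29, and *Mvd*, mevalonate diphosphate decarboxylase, -0.80 with a 95% interval of -1.70 to 0.11. *Pmvk*, phosphomevalonate kinase, had a Log2FC of 0.31, which was -0.03 without GF replicate 6. Leaving out 1 library moved *Acat2* between -0.51 (without GF replicate 6) and -0.13 (without CONV-R replicate 3), and *Mvk* between -0.45 (without GF replicate 1) and -0.13 (without GF replicate 6). None of these passed the test. Reads of *Acat2* could be split with other genes, since 39.1% of its 50-base stretches also occur in *Acat3* or *Tcp1*. For *Hmgcs1*, 11.6% of these stretches occur in 125 other annotated genes, and 12.1% of its exons overlap the opposite-strand gene *Gm48342*.

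*Idi1*, isopentenyl diphosphate isomerase, and *Fdps*, farnesyl diphosphate synthase, were barely counted. *Idi1* had 0.325 to 0.678 CPM in GF and 0.155 to 1.29 CPM in CONV-R libraries, with 2 to 16 counts per library (two-sided exact permutation test over 462 splits, p = 0.0996). *Fdps* had at most 0.130 CPM in GF and 1.10 CPM in CONV-R libraries (two-sided exact permutation test, p = 0.0649), and was at 0 in GF replicates 2, 5 and 6 and CONV-R replicate 6, where 0 counts allow up to 0.232 to 0.406 CPM from counting error alone. Of their 50-base stretches, 25.3% for *Idi1* and 26.2% for *Fdps* also occur in other annotated genes, so these levels are uncertain.

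Squalene is made and closed into a ring by the next enzymes. *Fdft1*, squalene synthase, had a Log2FC of -0.37, *Sqle*, squalene epoxidase, -0.28, and *Lss*, lanosterol synthase, 0.34. *Sqle* lay between 10.8 and 13.7 CPM in GF and between 8.69 and 21.1 CPM in CONV-R libraries, so CONV-R libraries spanned the GF range, and its Log2FC was -0.14 without CONV-R replicate 3. *Lss* had only 8 to 24 counts per library, and its 95% interval ran from -0.58 to 1.26. Its Log2FC lay between 0.14 and 0.58 with 1 library left out. *Fdft1* shared 26.5% of its 50-base stretches with other annotated genes. None of the 3 passed the test.

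Lanosterol is then turned into cholesterol. *Cyp51*, lanosterol 14-demethylase, had 2.86 to 8.02 CPM in GF and 5.54 to 15.2 CPM in CONV-R libraries, with a Log2FC of -0.80 (SE 0.29, edgeR adjusted p = 0.106). *Msmo1*, methylsterol monooxygenase, had 19.9 to 34.3 CPM in GF and 31.4 to 70.0 CPM in CONV-R libraries, with a Log2FC of -0.55 (SE 0.20, edgeR adjusted p = 0.114) that was -0.35 without CONV-R replicate 3. Both ranges overlapped between the groups. *Hsd17b7*, a sterol ketoreductase, had a Log2FC of -0.46, *Nsdhl*, a sterol dehydrogenase, -0.24, and *Tm7sf2*, a sterol reductase, -0.21. *Dhcr7*, which makes cholesterol from its last precursor, had -0.20 (-0.34 without GF replicate 6 and -0.04 without GF replicate 5). *Ebp*, sterol isomerase, had 0.24 (0.12 to 0.35 with 1 library left out). None of these 7 enzymes passed the test.

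*Sc5d* (chromosome 9, 42251595 to 42264256, minus strand), sterol-C5-desaturase, had 12.9, 14.5 and 19.6 CPM as lowest, median and highest value in CONV-R libraries. GF replicates 1, 2, 4, 5 and 6 had 10.4, 10.2, 11.1, 9.78 and 11.1 CPM. Every GF library was below every CONV-R library, and the GF values lay close together. The means were 10.5 ± 0.588 CPM (SD, n = 5) in GF and 15.4 ± 2.63 CPM (SD, n = 6) in CONV-R ECs. The Log2FC of -0.55 (SE 0.17, 95% interval -0.90 to -0.19) missed the threshold in edgeR (adjusted p = 0.0572). It passed in DESeq2 (adjusted p = 0.0215) and in limma on the authors' normalized values (adjusted p = 0.0456). DESeq2 called 9.83% of the 15540 genes with an adjusted p and 4 of the members, namely *Elovl1*, *Elovl5*, *Insig1* and *Sc5d*.

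**Figure D4:**
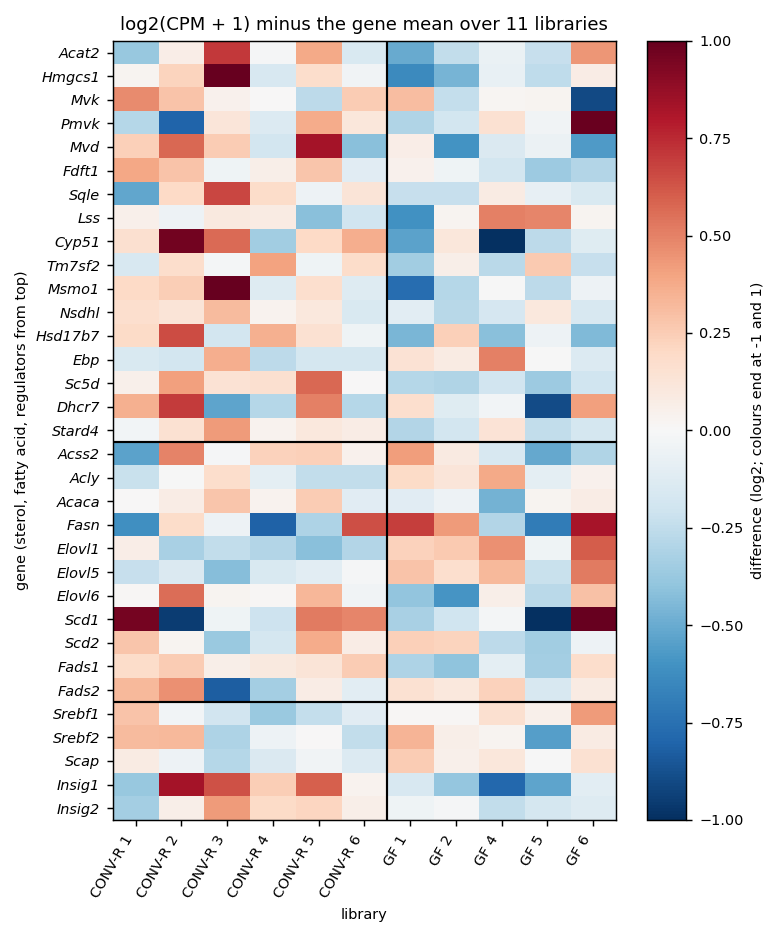
Colour map of log2(CPM + 1) minus the mean over the 11 libraries, with the 33 tested members in rows and the libraries in columns, CONV-R left of the line and GF right. In GF libraries 4 to 6 of the 17 sterol genes are above their mean, against 7 to 14 in CONV-R libraries.

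In the fatty acid branch, *Elovl1* (chromosome 4, 118428093 to 118432953, plus strand) rose. CONV-R libraries had 30.4, 33.2 and 42.9 CPM as lowest, median and highest value. In GF replicates 1, 2, 4, 5 and 6 the values were 48.1, 49.4, 56.5, 39.8 and 62.7 CPM. All GF libraries except replicate 5 were above the CONV-R range, and CONV-R replicate 1 was above GF replicate 5, so the groups overlapped. The means were 51.3 ± 8.69 CPM (SD, n = 5) in GF and 34.5 ± 4.34 CPM (SD, n = 6) in CONV-R ECs. The Log2FC was 0.57 (SE 0.14, 95% interval 0.28 to 0.86, edgeR adjusted p = 0.0164). Without GF replicate 6, the Log2FC was 0.49 and the call was lost (edgeR adjusted p = 0.0545), and 622 genes passed in all, against 965 with it. This library had the highest Kupffer, cholangiocyte and lymphocyte marker sums, and the part of these cells was not tested.

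*Elovl5* (chromosome 9, 77917364 to 77984519, plus strand), an elongase of polyunsaturated fatty acids, was the most abundant of the 35 members per length, at 59.6 FPKM. CONV-R libraries had 153, 185 and 205 CPM as lowest, median and highest value. Values of 251, 231, 258, 176 and 296 CPM were found in GF replicates 1, 2, 4, 5 and 6. Only GF replicate 5 lay within the CONV-R range, with the other 4 above it. The Log2FC of 0.41 (SE 0.12, 95% interval 0.15 to 0.67) missed the threshold in edgeR (adjusted p = 0.0528), and passed in DESeq2 (adjusted p = 0.0308) and without GF replicate 5 (edgeR adjusted p = 0.0092).

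*Elovl6*, which extends palmitate to stearate, had a Log2FC of -0.36. It lay between 5.41 and 10.9 CPM in GF and between 8.46 and 13.2 CPM in CONV-R libraries, with an edgeR adjusted p of 0.359. *Fads1*, the delta-5 desaturase, had 95.6 to 143 CPM in GF and 132 to 151 CPM in CONV-R libraries. GF replicate 6 alone lay within the CONV-R range. Its Log2FC of -0.34 (SE 0.12, edgeR adjusted p = 0.0831) was -0.45 without that library and then passed the test (edgeR adjusted p = 0.0245). *Fads2*, the delta-6 desaturase, had a Log2FC of 0.11 with a 95% interval of -0.42 to 0.63.

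The stearoyl-CoA desaturases introduce the first double bond. *Scd2* was the main one per length, at 13.5 FPKM against 0.848 FPKM for *Scd1*. *Scd2* lay between 56.8 and 86.0 CPM in GF and between 55.9 and 94.4 CPM in CONV-R libraries, with a Log2FC of -0.07. *Scd1* ranged from 0.793 to 8.95 CPM in GF libraries alone, and its 95% interval of -1.28 to 0.79 spans 0. They shared 3.97% and 4.56% of their 50-base stretches with other annotated genes, in that order.

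Of the enzymes that supply acetyl-CoA and build palmitate, *Acly*, ATP citrate lyase, was the most abundant at 23.1 FPKM. It lay between 113 and 158 CPM in GF and between 102 and 137 CPM in CONV-R libraries, with a Log2FC of 0.24 (SE 0.12, edgeR adjusted p = 0.234). *Acss2*, acetyl-CoA synthetase, had a Log2FC of -0.17, *Acaca*, acetyl-CoA carboxylase, -0.20, and *Fasn*, fatty acid synthase, 0.47. Leaving out 1 library moved *Acss2* between -0.33 and -0.07, *Acaca* between -0.25 and -0.12 and *Fasn* between 0.28 and 0.73. *Fasn* was low, at 0.386 FPKM with 15 to 105 counts per library, and its 95% interval ran from -0.37 to 1.30. None of the 4 passed the test, and 30.4% of the 50-base stretches of *Acaca* also occur in other annotated genes.

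Of the 38 further genes of the same pathway reported here, 34 were tested, and 4 rose and 1 fell in GF ECs, where 4.8% of all tested genes were called higher and 2.67% lower. Among 12 further synthesis enzymes, 1 fell and none rose, and 9 were tested. The gene that fell was *Acsl3*, which activates long-chain fatty acids, with 24.1 to 27.3 CPM in GF and 31.6 to 67.3 CPM in CONV-R libraries. The groups did not overlap, and the Log2FC was -0.66 (SE 0.18, edgeR adjusted p = 0.0327). Without CONV-R replicate 3, the highest library, it was -0.46 (edgeR adjusted p = 0.0258), and the call was lost when any of 6 other libraries was left out and in limma on the authors' normalized values (adjusted p = 0.0811).

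All 12 further genes of SREBP control were tested, and 1 rose. This was *Sec24d*, a coat protein of vesicles that leave the endoplasmic reticulum, with a Log2FC of 0.47 (SE 0.14, edgeR adjusted p = 0.0419). It lost the call when any of 8 of the 11 libraries was left out, in edgeR with no filter on low counts (adjusted p = 0.0607) and in limma on the authors' normalized values (adjusted p = 0.0676).

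Among 14 genes of sterol uptake, storage and efflux, 13 were tested and 3 rose, beside the 4.8% of all tested genes called higher. *Mylip*, a ubiquitin ligase of sterol uptake, rose with 361 to 501 CPM in GF and 180 to 281 CPM in CONV-R libraries and a Log2FC of 0.85 (SE 0.13, edgeR adjusted p = 0.000604). *Abca1*, which exports cholesterol, rose with a Log2FC of 1.00 (SE 0.16, edgeR adjusted p = 0.00102). *Lipa*, lysosomal acid lipase, which frees cholesterol from its esters, rose with a Log2FC of 1.08 (SE 0.11, edgeR adjusted p = 9.24e-06). The groups did not overlap for any of the 3, as for 3.22% of all tested genes in this direction.

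**Figure D5:**
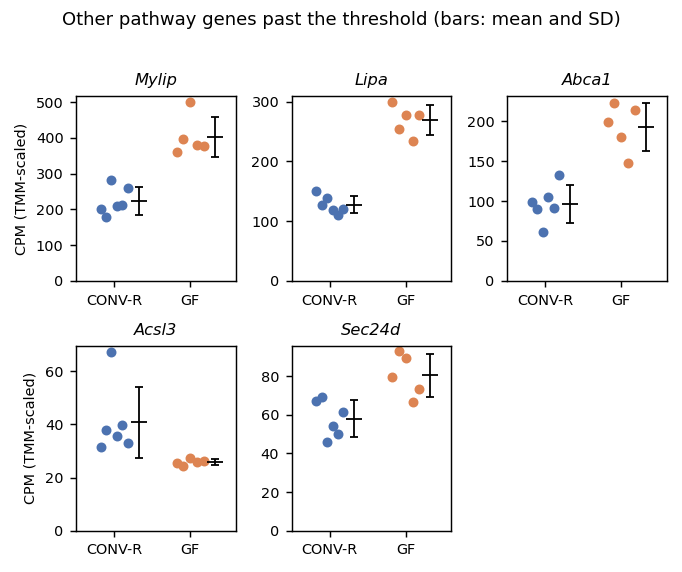
CPM of 5 other pathway genes past the threshold in each library, with the mean and SD of each group as bars and axes that start at 0. *Lipa* lies between 234 and 300 CPM in GF libraries and between 109 and 150 CPM in CONV-R libraries, and *Sec24d* is the only one of the 5 whose groups overlap.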

How the data were processed

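RNA of sorted liver ECs was sequenced from 6 CONV-R and 5 GF mice, 1 library per mouse, and groups follow the sample labels. The authors deposited raw counts per gene, with no normalization applied, from 50-base single-end reads that Trim Galore trimmed, STAR placed on GRCm38 and featureCounts assigned to genes, after removing 1 further GF library with few mapped reads. The authors also deposited log2 values normalized with the DESeq method, used here as an alternative. The submitters' processing notes list Trim Galore, STAR and StringTie, and the counting tool is named here from the study's methods. The labels name a TruSeq RNA preparation, whereas these methods describe amplified cDNA. The annotation release and strand setting are not given in the sources used here.

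Counts were filtered with filterByExpr, scaled by TMM and compared with the quasi-likelihood test of edgeR 4.0.16 in R 4.3.3, with Benjamini-Hochberg adjustment over all 12905 tested genes. CPM use TMM-scaled totals, and FPKM divide CPM by exon length in GENCODE M21. Shared 50-base stretches were searched in the GENCODE M21 transcripts, and promoters come from RefSeq. Depth, at 7242717 to 16164588 counts, limits weakly counted genes, and all intervals of counts of 0 cover counting error only. The smallest p of the exact permutation test depends on the 462 splits. The edgeR fit was run on simulated counts before use.

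Members and lists were chosen with earlier results of these data known. All 35 members are named. Those past the threshold, the highest of each branch by FPKM and the 5 regulators have values for every library. *Sc5d*, the only member whose groups do not overlap, was given them after its values were seen. Other pathway genes are named when past the threshold. Some genes of the pathway are not reported here, and the counts of other pathway genes leave them out. Alternatives were DESeq2 1.42.0, DESeq2 size factors, voom and limma 3.58.1, no filter, at least 10 counts in every library, a block for the replicate number, and each library left out in turn.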

Additional observations from a re-analysis of the deposited data

Results flagged for a closer look

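In the groups of 5 or 6 libraries, a library was picked out when its gap to the nearest other library, divided by the range of its group, passed Dixon's 95% critical value for that number. Over 80 groups examined this gave 9 values from 4 libraries, and chance alone picks out about 1 in 20 groups.

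CONV-R replicate 3 was the high library for 5 of the 9 values. It had 97.0 CPM of *Hmgcs1* (other CONV-R libraries 39.0 to 51.4), 70.0 CPM of *Msmo1* (31.4 to 41.0), 16.7 CPM of *Ebp* (10.4 to 11.4), 205 CPM of *Stard4* (149 to 168) and 67.3 CPM of *Acsl3* (31.6 to 39.6). CONV-R replicate 1 had 42.9 CPM of *Elovl1*, against 30.4 to 34.4 CPM in the other CONV-R libraries. GF replicate 4 had 167 CPM of *Stard4* (other GF libraries 124 to 134) and 501 CPM of *Mylip* (361 to 396). GF replicate 6 had 9.09 CPM of *Pmvk*, against 3.12 to 4.67 CPM in the other GF libraries.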

How the results depend on the processing

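With DESeq2, 1527 genes passed the threshold, 2 members were higher and 2 lower, and 1 was a sterol and 2 were fatty acid members. On the authors' normalized values 1 sterol member and 0 regulators passed, and the cause was not tested. With 1 library left out, 622 to 1260 genes passed (965 with all libraries; 625 without CONV-R replicate 4 and 622 without GF replicate 6), with 0 to 2 members higher, 0 to 2 lower, 1 to 2 in the fatty acid branch, 0 in the sterol branch and 0 to 1 regulators.

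Directions turned for 4 members whose Log2FC lay near 0 or varied with 1 library. *Pmvk* lay between -0.0288 (without GF replicate 6) and 0.443 with 1 library left out, and *Scd1* between -0.814 and 0.0011 (without GF replicate 5). *Fads2* lay between -0.0240 (without CONV-R replicate 3) and 0.232, and was at -0.0026 with the replicate block. *Srebf2* lay between -0.106 and 0.108 with 1 library left out, above 0 without CONV-R replicate 1, CONV-R replicate 2 or GF replicate 5, and was at 0.0007 with voom and 0.0041 on the authors' values. The sterol median stayed between -0.34 and -0.22 over the 19 alternatives, with 13 to 15 of the tested members below 0. The fatty acid median lay between -0.15 and 0.01 and the regulator median between -0.11 and 0.11, so both changed sign.

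The replicate numbers are shared by 5 pairs of mice, whose same-number correlations ran from -0.011 to 0.143, so the numbers were not taken as pairs, and 2 of 5 GF libraries correlated best with their own number. With the replicate block on these 10 libraries, 1101 genes passed, with 2 fatty acid members (*Elovl1* and *Fads1*) and 0 regulators (*Insig1* at -0.68, edgeR adjusted p = 0.0563), against 931 genes for the same libraries with no block, which are those without CONV-R replicate 3.

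Scaling to library totals alone moved the median Log2FC of all genes to -0.07, from -0.01 with TMM. Depth limits *Idi1*, *Fdps* and *Lss* most.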
